A study of Mus musculus with 21 samples.

Results

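The genes described here are those that lie within 10 Mb of *Mapk8* on mouse chromosome 14. *Mapk8* encodes JNK1, the kinase removed in the knockout mice. Members were chosen by position alone: every non-control probe whose listed mm9 start lay between 24204748 and 44204748 on chromosome 14, grouped by gene name, with *Mapk8* itself left out. This gave 186 of 27373 gene names on the array (278 of 41174 probes), 126 at lower and 60 at higher coordinates than the *Mapk8* probe at chr14:34204748-34204807. Of the 186, 133 had a RefSeq symbol and 124 were protein coding in RefSeq.

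The tissues were skin, liver and the epididymal fat pad. All mice were C57Bl6/J males, 45 weeks old, that had been kept on High Fat Diet between weeks 5 and 44 of life. Knockout (KO) mice lacked JNK1 and wild-type (WT) mice did not. Each array is a single-colour Agilent array hybridised with cRNA made from 0.2 ug of RNA, and the arrays used were 4 KO and 3 WT for skin, 3 and 3 for liver, and 4 and 3 for fat, although the series text speaks of quadruplicates. The labels give neither the allele, the strain of the stem cells in which it was made nor any backcross, and they do not say whether the mice were littermates or whether 1 mouse gave several arrays. The p-values therefore measure only the spread between these samples.

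JNK1 is a stress-activated protein kinase that phosphorylates c-Jun and other transcription factors, and mice that lack it are known to resist diet-induced obesity. A targeted allele made in stem cells of a donor strain is carried into another strain together with the chromosome around it, so mice that differ at the target can also differ at its neighbours. An array probe reads only the stretch of transcript that it matches, so probes of the same gene can behave differently. In this design the loss of JNK1, flanking DNA of another origin and an effect of the altered locus on its neighbours cannot be told apart.

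Levels are given as log2 intensity after subtraction of each array's 75th percentile. A difference is the KO mean less the WT mean in these log2 units. A gene was tested in a tissue if 3 or more of that tissue's arrays read its probe well above background, and it was called if its adjusted p was below 0.05 (limma, Benjamini-Hochberg over all genes tested in that tissue). Between 38.9% and 57.2% of probes were well above background on an array. Of the members, 77 were tested in all 3 tissues, 9 in 2, 17 in 1 and 83 in none, and 61 were well above background on no array. In bulk tissue, fewer cells of a type and less RNA per cell cannot be told apart. The *Mapk8* probe was at -3.30 ± 0.28 (SD, n = 4) in KO fat and -0.92 ± 0.11 (SD, n = 3) in WT fat, and fell by 2.38 (SE 0.184, limma adjusted p = 0.0166). That call was missed without KO 1 (adjusted p = 0.104), KO 3 (0.11), WT 1 (0.103) or WT 3 (0.187), where the difference was -2.41 to -2.32, and with the slide as a fixed block (-1.59, limma adjusted p = 0.562). It was at -4.12 ± 0.79 (SD, n = 3) against -1.75 ± 0.20 (SD, n = 3) in liver (limma adjusted p = 0.216). In skin it was well above background on 0 of 4 KO and 2 of 3 WT arrays and was not tested. Of the KO arrays in the other tissues, 3 of 4 fat and 1 of 3 liver arrays read it well above background. Other *Mapk8* probes were dimmer. A_52_P274352 was at -5.95 in KO and -3.52 in WT fat, well above background on 0 of 4 and 2 of 3 arrays. A_52_P558382 was so on at most 1 array of a group, and A_51_P357182 and A_52_P559044 on none.

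Marker sums checked the tissue labels. Summed hepatocyte markers were 10.73 to 11.64 on liver arrays and at most 7.27 elsewhere, and summed keratinocyte markers were 10.77 to 11.63 on skin arrays. Adipocyte sums were 9.95 to 10.74 on fat arrays, and skin reached similar sums. Some arrays stood apart. On liver arrays the keratinocyte sum was 3.52 (KO 1), 5.48 (KO 2), 1.60 (KO 3), 1.03 (WT 1), 1.10 (WT 2) and 4.95 (WT 3). Skin KO 1 and WT 1 had the fewest probes well above background (38.9% and 39.5%). In skin the skeletal muscle sum was 9.60 to 11.16 in KO and 11.07 to 11.42 in WT, and in fat the epididymis sum was -4.001 to 1.72 in KO and -1.56 to 5.51 in WT and the erythroid sum 8.56 to 9.04 and 8.11 to 8.15.

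In liver, 3 of the 90 members tested were called, and these 3 were also the only genes called among all 13302 tested (0.0226%). Other settings called other liver genes as well: 9 in all with an intensity trend, 11 with normexp background correction, 20 with group means in 1 fit and 27 without WT 3. *A930038B10Rik*, *Lrit1* and *Lrit2* passed the filter in liver through their WT arrays alone, so a difference was built into their entry. The 3 called members were lower in KO: the long non-coding RNA *A930038B10Rik*, the retinal leucine-rich-repeat gene *Lrit1*, and *Gdf10*, which encodes a ligand of the TGF-beta and BMP family. They lie at higher coordinates than *Mapk8*, by 1.37 Mb, 3.67 Mb and 0.54 Mb. In skin, 0 of 85 members and 2 of all 13497 genes tested were called (0.0148%). In fat, 0 of 91 members and 2 of all 15247 genes tested were called (0.0131%), of which *Mapk8* was 1. At an unadjusted p below 0.05 in limma, 10 members were lower and 2 higher in KO skin (5.02% and 2.85% of all genes), 10 lower (with the 3 that entered through WT alone) and 1 higher in KO liver (3.65% and 2.41%), and 3 lower and 3 higher in KO fat (3.12% and 4.81%). As shares of the members tested, these were 11.8% and 2.35% in skin, 11.1% and 1.11% in liver, and 3.3% each way in fat. The share of lower members was thus above that of all genes in skin and near it in fat. The liver share counts *A930038B10Rik*, *Lrit1* and *Lrit2*, whose entry through WT alone built in a difference. It is therefore not compared with that of all genes. Of all skin genes at that p, 63.8% were lower, against 45% with each array centred on its median and 77.9% with normexp background correction, and in liver 60.2%, against 73.8% with median centring. With median centring, lower members numbered 5 of 85 in skin, where 3.16% of all genes were lower. In liver they numbered 10 of 90. That set holds the members that entered through WT alone, so this count too is not compared with all genes.

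**Figure D1:**
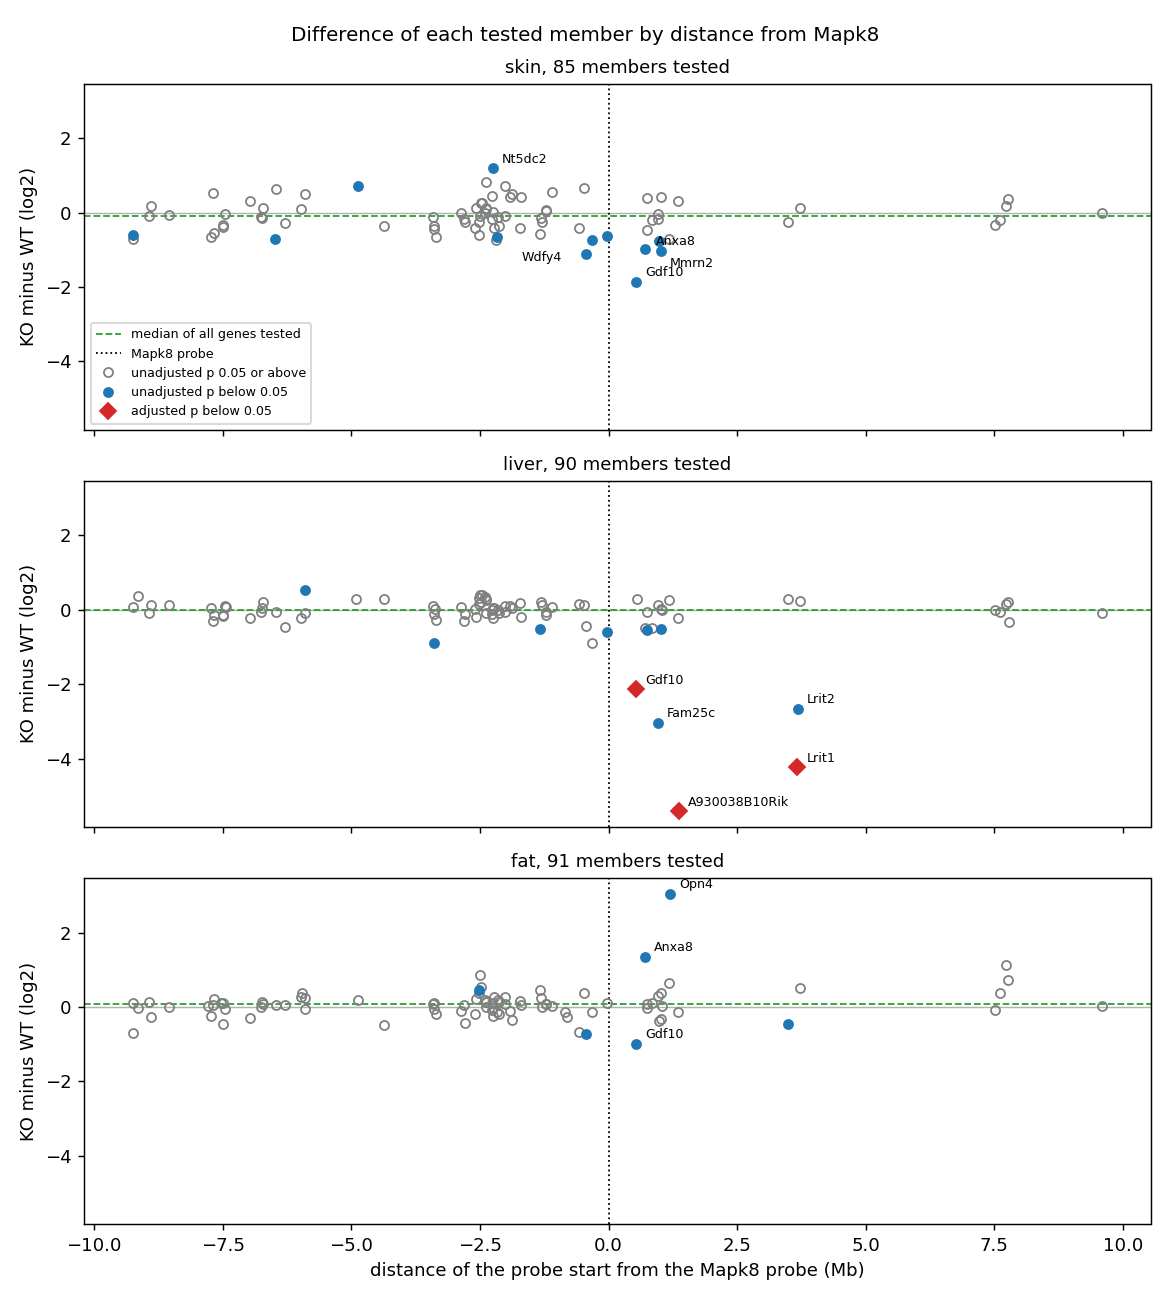
Difference between KO and WT (log2, vertical axis) of every member tested in skin, liver and fat, against the distance of its probe start from the *Mapk8* probe in Mb. Diamonds passed adjusted p below 0.05 and filled circles unadjusted p below 0.05 (limma). The 3 diamonds are in liver, at -5.42, -4.24 and -2.13, and all lie to the right of *Mapk8*. For the lowest pair the KO signal was not well above background.

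The members that the liver results turn on are identified here by the middle 30 bases (positions 16 to 45) of their 60-base probes, printed because each value was read by the probe shown. In mm9, they map to chr14:35579050-35579109 (*A930038B10Rik*, plus strand), chr14:37878039-37878098 (*Lrit1*, plus), chr14:37886005-37886064 (*Lrit2*, plus), chr14:34748161-34748220 (*Gdf10*, plus) and chr14:35165215-35166894 (*Fam25c*, minus). The span listed for *Fam25c* is longer than its probe. The exon under each probe was not analysed here.
A930038B10Rik: ttcttgcctatgcacaatcttggtagagga
Lrit1: gttcttgtgggtatttatgttactaaaaca
Lrit2: ctgacctattaaactatgcctgatagtggc
Gdf10: tacatgcagtatgcacatgtaatcacggtt
Fam25c: taatgacgccctaaagaaagcccaagaatc

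The *A930038B10Rik* probe read 0.63, 0.36 and 0.28 on the 3 WT liver arrays and -5.45, -4.31 and -5.23 on the 3 KO liver arrays. Every WT liver array was well above background and no KO liver array was, so the transcript was at least 13.7-fold higher in WT (means -5.00 ± 0.60 and 0.42 ± 0.18, SD, n = 3 each, limma adjusted p = 0.00616). It was also the only gene called in liver when no filter on dim probes was set. In skin and fat it was well above background on no array of either genotype, at -4.74 ± 0.69 (SD, n = 4) and -4.54 ± 0.32 (SD, n = 3) in KO and WT skin and -5.98 ± 0.43 (SD, n = 4) and -5.83 ± 0.64 (SD, n = 3) in KO and WT fat. The probe was thus detected in WT liver alone.

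*Lrit1* showed the same layout. Its probe read 0.93, 0.87 and 0.82 on the WT liver arrays and -4.16, -2.92 and -3.01 on the KO liver arrays, of which none was well above background, so that it was at least 16-fold higher in WT (means -3.36 ± 0.69 and 0.88 ± 0.06, SD, n = 3 each, limma adjusted p = 0.0186). Without a filter on dim probes it was not called (limma adjusted p = 0.11). *Lrit2*, its neighbour 3.68 Mb from *Mapk8* and a member of the same leucine-rich-repeat family, was dimmer, at -2.42, -2.92 and -2.02 in WT liver and -5.47, -4.50 and -5.36 in KO liver. The *Lrit2* groups did not overlap and only the WT arrays were well above background (at least 1.87-fold), but it did not pass (limma adjusted p = 0.112). Neither gene was well above background on any skin or fat array. Of the listed retina genes *Rgr*, *Rbp3*, *Lrit1*, *Lrit2*, *Cdhr1* and *Opn4*, 2 were bright enough to be tested in liver, 0 in skin and 1 in fat.

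*Gdf10* was detected in every group. In liver the WT arrays read 0.34, 0.27 and 0.50 and the KO arrays -1.66, -1.86 and -1.76, and it fell by 2.13 (SE 0.145, 95% interval -2.48 to -1.79, limma adjusted p = 0.0113). In skin the WT arrays read 0.35, -0.13 and -0.06 and the KO arrays -3.39, -1.76, -1.58 and -0.49, a difference of -1.86 (SE 0.579, limma adjusted p = 0.555), with KO 1 not well above background. All 4 KO skin arrays lay below all 3 WT skin arrays, but they spread widely among themselves. In fat the WT arrays read 2.47, 0.95 and 1.76 and the KO arrays 1.20, 0.88, -0.02 and 0.90, so that the groups overlapped (difference -0.99, SE 0.411, limma adjusted p = 0.613). The mean of the 3 tissue differences was -1.66 (SE 0.280, limma adjusted p = 0.0216), and *Gdf10* was the only member called of 77, where 11 of all 11711 genes tested in all 3 tissues were called (0.0939%). In that mean, 6 members were lower and 2 higher at an unadjusted p below 0.05 (7.79% and 2.6%, against 4.47% and 2.19% of all genes).

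Summed markers of adipocytes, a cell type that could be carried into a liver sample, were 3.12 to 4.62 in KO and 5.56 to 5.87 in WT liver. Of these markers, *Cidec*, a lipid-droplet gene, read 0.77 to 3.70 in KO and 5.22 to 5.54 in WT, without overlap. *Adipoq* read -3.41 to -1.46 in KO and -4.55 to -3.20 in WT, with overlap, and *Fabp4*, *Lipe* and *Plin1* overlapped too. In fat the same sum was 9.95 to 10.74 in KO and 10.3 to 10.5 in WT. *A930038B10Rik* and *Lrit1* were well above background on no fat array, and on no skin array. The part of the adipocyte markers in the liver differences of *Gdf10*, *A930038B10Rik* and *Lrit1* was not tested.

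*Fam25c*, 0.96 Mb from *Mapk8*, read 5.01, 5.30 and 4.90 in WT liver and 1.58, 3.06 and 1.45 in KO liver, a difference of -3.04 (SE 0.422, limma adjusted p = 0.16). The groups did not overlap, and KO 2 was the highest of the KO arrays. In skin it read 7.79 to 8.57 in KO and 8.11 to 8.33 in WT, with overlapping groups (difference -0.03). The KO array with the highest *Fam25c* also had the highest keratinocyte sum, given above. Among WT arrays, the one with the highest keratinocyte sum, WT 3, had the lowest *Fam25c*. The part of these markers was not tested. Without liver KO 2 the difference was -3.56 and passed (limma adjusted p = 0.00615). Without liver KO 1, KO 2 and WT 3, which left 1 KO array, it was -3.71.

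The liver calls depended on single arrays. Without liver KO 3, WT 1 or WT 2, no member was called: limma adjusted p for *A930038B10Rik* was then 0.0548, 0.0681 and 0.0694, for *Lrit1* 0.0774, 0.17 and 0.152, and for *Gdf10* 0.0774, 0.152 and 0.099. *Gdf10* also missed the threshold without KO 1 (adjusted p = 0.0509). The differences themselves moved little, from -5.30 to -5.45 for *A930038B10Rik* without those 3 arrays. Leaving out KO 1, KO 2 and WT 3, the arrays with high keratinocyte sums, left 1 KO array, so only the differences are given. They were -5.73 for *A930038B10Rik*, -3.91 for *Lrit1* and -2.07 for *Gdf10*. KO and WT liver arrays share no slide; in a fit of all arrays with the slide as a block, *A930038B10Rik* and *Lrit2* were the members called in liver, and *Gdf10* (-2.27, limma adjusted p = 0.769) and *Lrit1* (-3.71, adjusted p = 0.0744) were not. With normexp background correction, which adds an offset that shrinks dim values, the differences were -2.31 for *A930038B10Rik*, -2.43 for *Lrit1* and -1.37 for *Gdf10*, each still called, and *Fam25c* was called too (-2.96, adjusted p = 0.0408).

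**Figure D2:**
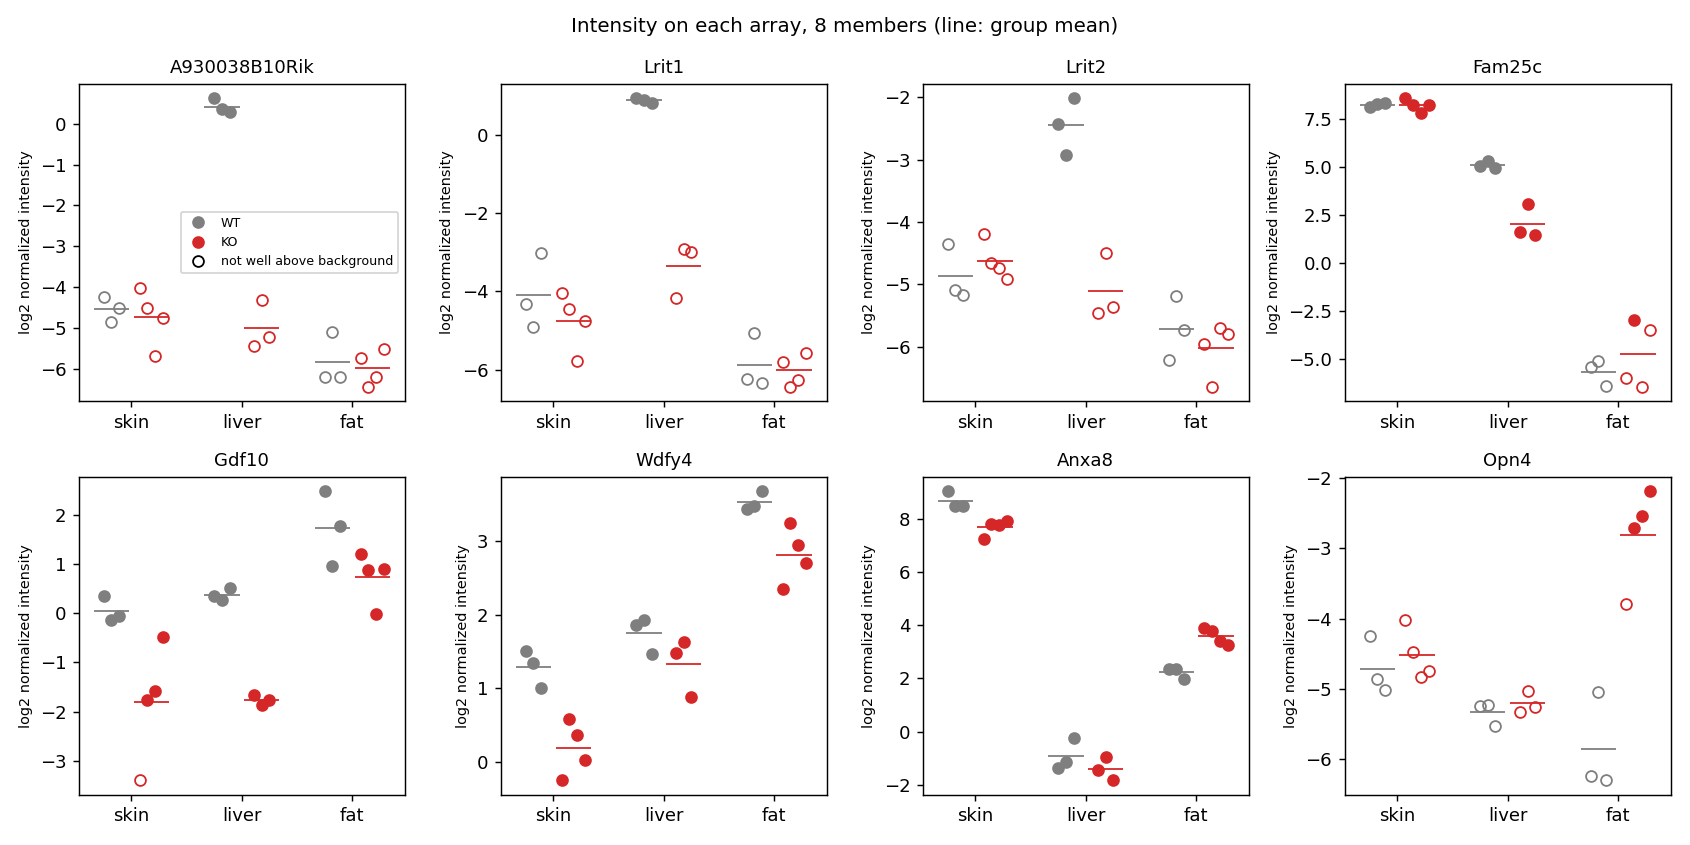
Log2 intensity less the array's 75th percentile (vertical axis, separate scale in each panel) on every array for 8 members in skin, liver and fat. Points are arrays, grey WT and red KO, open where not well above background, and lines are group means. *A930038B10Rik*, *Lrit1* and *Lrit2* are filled in WT liver alone, and *Opn4* in KO fat alone.

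Differences between tissues were tested directly, as contrasts of the KO effects in 1 fit of all arrays. Of the members, 3 of 96 differed between skin and liver (0.202% of all genes), 2 of 95 between skin and fat (0.423%) and 3 of 101 between liver and fat (0.0564%). Among them, *A930038B10Rik*, *Lrit1* and *Lrit2* entered through WT liver alone and *Opn4* through KO fat alone, so a difference was built into their entry. The only other member was *Anxa8*. These counts are therefore not compared with the shares of all genes. The KO effect on *A930038B10Rik* was lower in liver than in skin, with a contrast of skin minus liver of 5.22 (SE 0.550, limma adjusted p = 0.000491), and lower than in fat, with liver minus fat of -5.28 (SE 0.550, adjusted p = 0.000445). Since its probe was not above background outside liver, these contrasts set a detected level against the dim end of the scale. With normexp, skin minus liver was 2.16 and did not pass (limma adjusted p = 0.0564). The same contrasts passed for *Lrit1*, at 3.56 (SE 0.677, adjusted p = 0.0452) and -4.10 (SE 0.678, adjusted p = 0.0297), and skin minus liver for *Lrit2*, at 2.90 (SE 0.473, adjusted p = 0.03), but at 0.59 with normexp (adjusted p = 0.718). These too rest on signals below background outside WT liver. The contrasts of *Gdf10* were called in none of the 3.

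Closer to *Mapk8*, the members under 1 Mb had more low values in KO than those farther away. In skin, 6 of 13 members under 1 Mb had an unadjusted p below 0.05, all lower (46.2%, against 7.88% of all genes tested), with a median difference of -0.47 against -0.10 for all genes. In liver, 4 of 13 did, all lower (30.8% against 6.04%), with a median of -0.48 against -0.005. In fat, 3 of 14 did (21.4% against 7.93%), 2 lower and 1 higher, with a median of -0.07 against 0.08. From 1 to 2.5 Mb the counts were 3 of 32 in skin, 3 of 32 in liver and 1 of 33 in fat, with medians of 0.03, 0.02 and 0.09. From 2.5 to 5 Mb they were 1 of 15, 3 of 18 and 2 of 15, and from 5 to 10 Mb 2 of 25, 1 of 27 and 0 of 29. The rest of chromosome 14, beyond 10 Mb, had 31 of 379 (8.18%), 21 of 360 (5.83%) and 54 of 425 (12.7%). The liver genes from 2.5 to 5 Mb with low values were *Lrit1* and *Lrit2* on the side of higher coordinates and *Il17rb* on the other. *Lrit1* and *Lrit2* were tested in liver through WT arrays alone, as was *A930038B10Rik* in the range from 1 to 2.5 Mb.

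These counts are descriptions over few genes that share the same mice. Over all alternative settings, the number of members under 1 Mb that were lower at an unadjusted p below 0.05 was 2 to 7 in skin, 3 to 5 in liver and 0 to 3 in fat. Among all genes, the share lower at that p was 1.6% to 11.5% in skin and 1.51% to 5.2% in fat over these settings. In liver it was 1.99% to 4.56%, leaving aside the fit with 1 KO array. The lowest skin count, 2 of 13, came with the slide as a fixed block, where 11.5% of all genes were lower. Without skin KO 1 and WT 1 the skin count was 4 of 13, where 4.36% of all genes were lower. The skin differences were then -0.85 for *Wdfy4*, -0.64 for *Anxa8* and -1.17 for *Gdf10*, none called. Of the 11 members under 1 Mb tested in all 3 tissues, 3 were negative in each (27.3%) and 1 positive in each, where other genes were negative in each in 11.1% and positive in 10.8%. Over all 77 members tested in all 3 tissues, 10 were negative in each (13%) and 12 positive (15.6%).

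**Figure D3:**
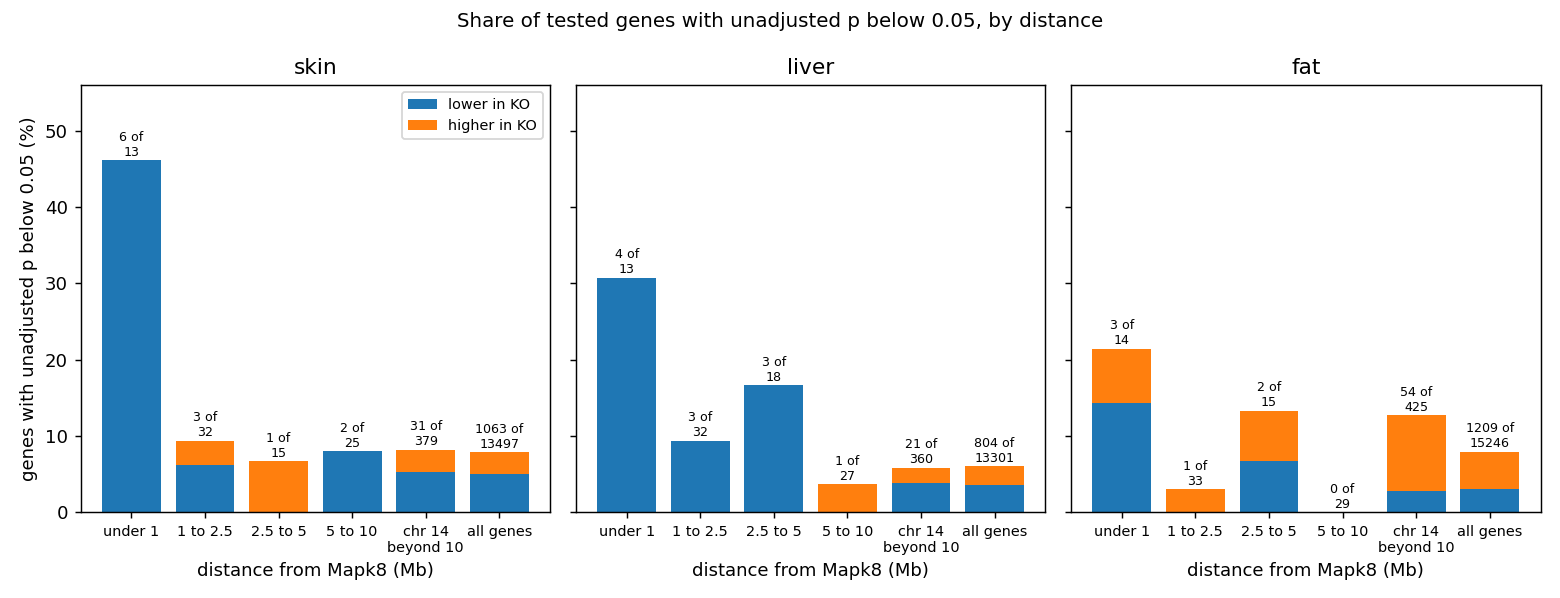
Share of tested genes with an unadjusted p below 0.05 (vertical axis, percent, limma) by distance from *Mapk8* in Mb, for members in 4 distance ranges, the rest of chromosome 14 and all genes tested except *Mapk8*. Blue is lower and orange higher in KO, with counts above the bars. Under 1 Mb the share is 46.2% in skin, 30.8% in liver and 21.4% in fat.

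In skin, the members under 1 Mb with an unadjusted p below 0.05 were *Wdfy4*, *Anxa8*, *Gdf10*, *Sncg*, *Arhgap22* and *TC1735007*. *Wdfy4*, whose protein dendritic cells use for antigen cross-presentation, lies 0.43 Mb from *Mapk8* at lower coordinates (probe at chr14:33772821-33772880, mm9, minus strand). It read 1.51, 1.34 and 1.003 in WT skin and -0.25, 0.59, 0.36 and 0.02 in KO skin, without overlap (difference -1.10, SE 0.255, limma adjusted p = 0.255). In fat it read 3.44, 3.48 and 3.68 in WT and 2.36, 3.25, 2.95 and 2.71 in KO, again without overlap (difference -0.72, SE 0.222, adjusted p = 0.557). In liver the groups overlapped (difference -0.42, SE 0.243). The mean over the 3 tissues was -0.75 (SE 0.142, limma adjusted p = 0.0548), which passed in 11 of 32 alternative settings. Summed macrophage markers were 7.01 to 7.20 in KO and 6.71 to 7.68 in WT skin, which overlapped, and 7.84 to 8.57 on 3 KO and 8.30 to 8.53 on the WT fat arrays, which also overlapped. The sum of KO 4 lacks *Lyz2* and *Emr1* and that of KO 3 lacks *Cd68*, whose spots were left out, so KO 4 is not compared. Taken by gene, 4 of 4 macrophage markers were negative in skin (median -0.34) and 4 of 4 in fat (median -0.31). In liver 1 of 4 was negative. The differences of these markers were called in 0 cases. The part of these markers in the *Wdfy4* values was not tested.

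*Anxa8*, a calcium-dependent phospholipid-binding annexin 0.71 Mb from *Mapk8* (probe at chr14:34913661-34913720, mm9, plus strand), differed in opposite directions in skin and fat. In skin it read 9.02, 8.46 and 8.46 in WT and 7.22, 7.79, 7.75 and 7.91 in KO (difference -0.98, SE 0.247, limma adjusted p = 0.358). In fat it read 2.35, 2.34 and 1.99 in WT and 3.88, 3.79, 3.40 and 3.26 in KO (difference 1.35, SE 0.201, adjusted p = 0.319). Neither pair of groups overlapped, and the contrast of skin minus fat was -2.33 (SE 0.389, limma adjusted p = 0.0203). In liver the difference was -0.50 (SE 0.341) and the groups overlapped. Summed keratinocyte markers were 10.8 to 11.5 in KO and 11.1 to 11.6 in WT skin and -0.08 to 0.22 in KO and -0.17 to 0.76 in WT fat, so they overlapped in both tissues.

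*Opn4*, which encodes the photopigment melanopsin, lies 1.20 Mb from *Mapk8* (probe at chr14:35405835-35405894, mm9, minus strand) and had the highest positive difference among members. In fat it read -6.23, -5.04 and -6.29 in WT, none well above background, and -3.79, -2.72, -2.54 and -2.19 in KO, 3 of them well above background, so that it was at least 2.4-fold higher in KO. The difference did not pass (limma adjusted p = 0.319). Skin and liver arrays of either genotype were not well above background, and *Opn4* was tested through the 3 KO fat arrays alone. In its contrasts, every other group enters with signals that were not well above background. They passed for skin minus fat (-2.85, SE 0.495, limma adjusted p = 0.0205) and liver minus fat (-2.92, SE 0.512, adjusted p = 0.0458), but with normexp were -0.75 (adjusted p = 0.384) and -0.98 (adjusted p = 0.883). The middle 30 bases of the probes of these 3 genes are printed because each was read by a single probe.
Wdfy4: tacgtggctcacttcaccaaggcttattgc
Anxa8: tctccgagcctgaagaacatgacagaactc
Opn4: ctgcgcatgacatgctgtcagctatgttgt

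**Figure D4:**
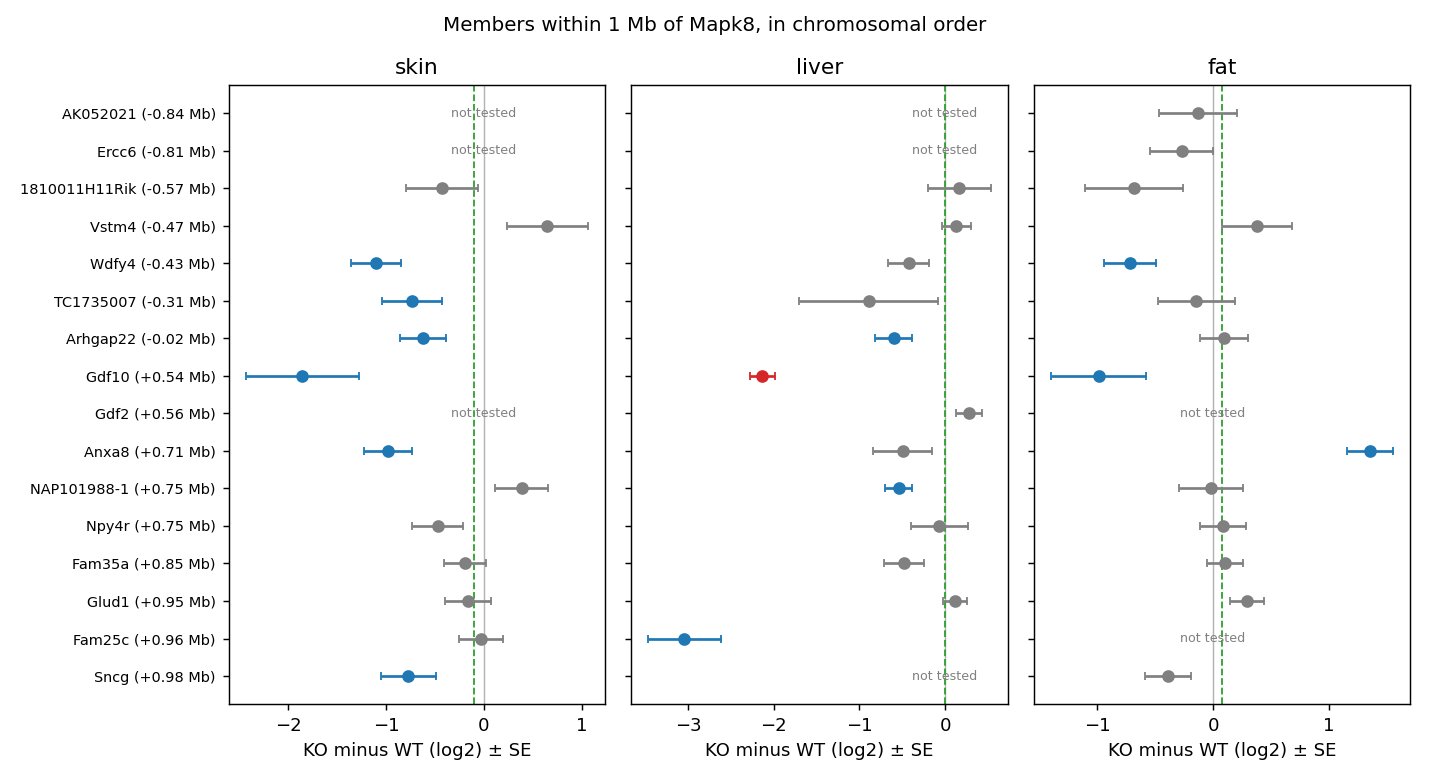
Difference between KO and WT (log2, horizontal axis, scales differ between panels) with its SE for the members within 1 Mb of *Mapk8* tested in at least 1 tissue, in chromosomal order from top to bottom. Red passed adjusted p below 0.05, blue unadjusted p below 0.05, grey neither (limma), and the dashed line is the median of all genes tested. *Gdf10* is negative in each tissue, and *Anxa8* is at -0.98 in skin and 1.35 in fat.

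The scanner file of fat WT 2 resembled skin arrays (r across probes 0.863 to 0.914) more than other fat arrays (0.725 to 0.766), so that array enters only through its column of the authors' deposited log2 table, which allows 4 against 4. There *Opn4* was at 5.66, 6.68, 6.61 and 6.74 in KO and 3.90, 3.95, 4.42 and 4.45 in WT (difference 2.25, SE 0.264, limma adjusted p = 0.0774). *Anxa8* differed by 1.24 (adjusted p = 0.263), *Wdfy4* by -0.82 (adjusted p = 0.263) and *Gdf10* by -0.81 (adjusted p = 0.449). Of 91 members 0 were called, where 1 of all 15247 genes was (0.00656%), and that gene was *Mapk8*. Without fat KO 1 the *Opn4* difference was called (adjusted p = 0.0172). Fat was also the tissue in which KO and WT arrays shared a slide: within that pair, KO 2 minus WT 4 was 3.58 for *Opn4*, 1.79 for *Anxa8*, -0.88 for *Gdf10* and -0.43 for *Wdfy4*.

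Among the other neighbours, *Arhgap22*, a GTPase-activating protein for Rac and the member nearest to *Mapk8* (0.02 Mb at lower coordinates), had differences of -0.62 in skin (SE 0.234), -0.60 in liver (SE 0.215) and 0.09 in fat, none called. *Sncg*, gamma-synuclein, read 4.54, 4.80 and 4.39 in WT skin and 3.51, 4.09, 3.32 and 4.31 in KO skin (difference -0.77, SE 0.280, limma adjusted p = 0.555). In fat its difference was -0.39 over 3 KO arrays, because the spot of KO 4 was left out as an outlier. The fat groups of *Sncg* did not overlap, at 4.42 to 4.94 in KO and 5.02 to 5.30 in WT (limma adjusted p = 0.697). *Sncg* is abundant in adipocytes, and the summed adipocyte markers were 9.39 to 10.06 in KO and 10.03 to 10.37 in WT skin, with 5 of 5 negative; their part in the skin value was not tested.

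BMP and Wnt signalling had 4 members. Beside the ligand *Gdf10*, *Gdf2*, which encodes the liver-derived ligand BMP9, was at 0.28 (SE 0.153) in liver, and the receptor *Bmpr1a* at 0.42 in skin, 0.01 in liver and 0.37 in fat, none called. The ligand *Wnt5a* read -1.82, -2.09 and -2.09 in WT skin and -1.02, -1.77, -0.79 and -1.60 in KO skin (difference 0.71, SE 0.274, limma adjusted p = 0.555). The *Wnt5a* groups did not overlap in skin and did in fat.

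Among endothelial and macrophage surface genes, *Mmrn2*, an endothelial matrix protein, read 4.44, 4.15 and 3.91 in WT skin and 2.49, 3.47, 3.02 and 3.52 in KO skin (difference -1.04, SE 0.291, limma adjusted p = 0.497). Without skin KO 1 and WT 1 the *Mmrn2* difference was -0.69. *Sema3g*, a semaphorin made by endothelium, read 1.82, 1.66 and 1.57 in WT skin and 0.60, 1.09, 1.04 and 1.33 in KO skin (difference -0.67, SE 0.220, adjusted p = 0.555). The scavenger receptor *Stab1* was at 0.02 and the tetraspanin *Tspan14* at -0.34. Summed endothelial markers were lower in the same arrays, at 3.43 to 3.94 in KO and 4.13 to 4.63 in WT skin with 4 of 5 negative; their part in *Mmrn2* and *Sema3g* was not tested. In fat all 4 of these members were negative, from -0.31 to -0.08, none with an unadjusted p below 0.05. The endothelial markers went the other way in fat, with 0 of 5 negative (median 0.30) and sums of 4.79 to 5.43 in KO and 4.29 to 5.02 in WT.

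The liver-protein genes in the window, which include the inter-alpha-trypsin inhibitor heavy chains, had 9 members tested in liver, of which 2 were negative and 0 passed at an adjusted p below 0.05 or an unadjusted p below 0.05 in limma. *Itih4* was the highest of them, at 6.61, 6.79 and 7.15 in KO and 6.81, 6.41 and 6.14 in WT liver, with overlapping groups (difference 0.40, SE 0.229). *Itih1* was at 0.38, *Itih3* at 0.22 and the transketolase *Tkt* at -0.31. Chromatin and DNA repair genes had 7 members tested in skin, 7 in liver and 8 in fat, of which 0 had an unadjusted p below 0.05, and they ranged from -0.23 to 0.08 in liver. The 5 mitochondrial members likewise had 0 in each tissue. *Il17rb*, a receptor subunit for the cytokine IL-25, read 0.34, 0.30 and 0.87 in WT liver and -0.36, -0.24 and -0.53 in KO liver, without overlap (difference -0.88, SE 0.199, limma adjusted p = 0.405). On the higher side in liver, *Ccdc66* was at 0.54 (SE 0.170, adjusted p = 0.653) and the kinase *Nek4* at 0.35 (SE 0.149, adjusted p = 0.837).

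*Ccser2*, 3.48 Mb from *Mapk8*, was read by 3 probes that did not behave alike. The probe with the highest mean intensity (A_52_P102798, chr14:37688161-37688220, mm9) gave -0.26 on skin arrays, 0.28 on liver and -0.45 on fat arrays, and the probe at chr14:37751895-37751954 (A_51_P295175) gave 0.21, -0.004 and -0.01. The probe at chr14:37692084-37692143 (A_52_P305041) gave -1.32 (SE 0.227), -0.56 (SE 0.267) and -1.52 (SE 0.183). On it the skin arrays read -0.58, -0.30 and -0.47 in WT and -1.39, -1.70, -1.82 and -2.16 in KO. Its fat arrays read 0.58, 0.16 and 0.24 in WT and -1.32, -1.35, -1.27 and -0.86 in KO, and the groups did not overlap in either tissue. In liver it read -0.74, -0.63 and -1.50 in WT and -1.44, -1.78 and -1.33 in KO, with overlap. Tested probe by probe with limma, A_52_P305041 was called in no single tissue. The mean of its 3 differences was -1.14 (SE 0.130, limma adjusted p = 0.00037 over all probes tested). The means of the other probes were -0.14 (limma adjusted p = 0.884) and 0.06 (adjusted p = 0.933). In the authors' deposited table, fat WT 2 read 8.87 on this probe, the other WT columns 8.91, 8.45 and 8.57, and the KO columns read 7.18 to 7.68. Their middle 30 bases are shown because the result differs between stretches of the same gene.
A_52_P102798: gaattatggaaaccggatgtaaagtctctt
A_52_P305041: gttttttgaaaacagtctgctctctaatag
A_51_P295175: ctggaaacaacttgatttcaccggatacgg

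**Figure D5:**
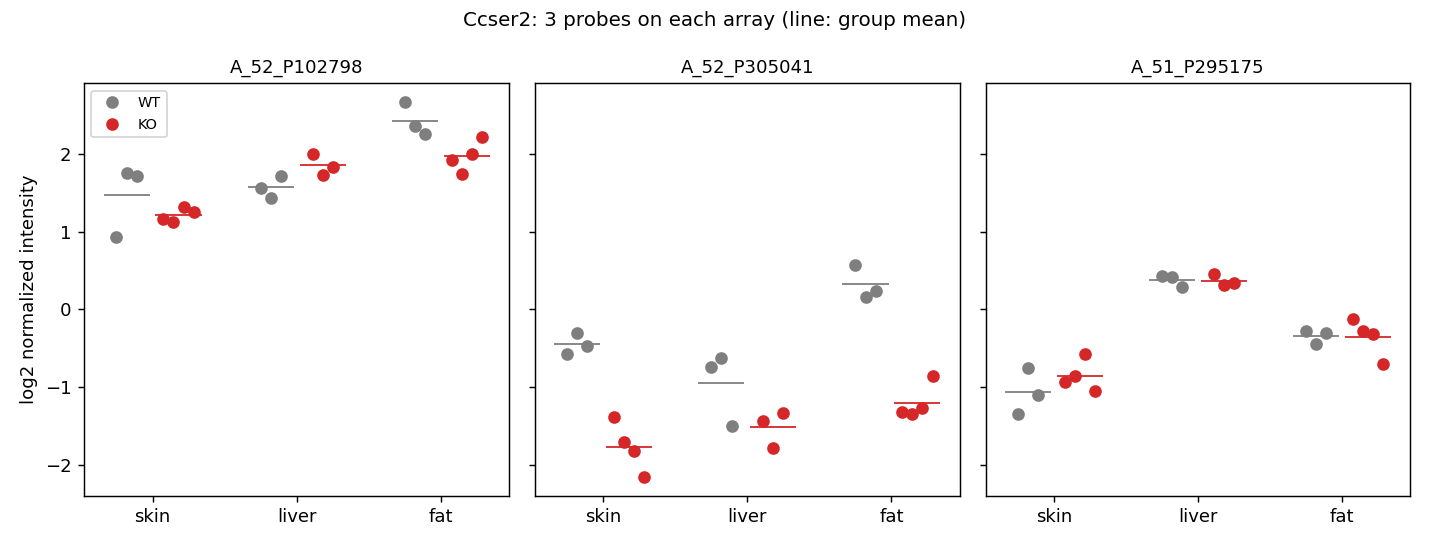
Log2 intensity less the array's 75th percentile (vertical axis) of the 3 *Ccser2* probes, 1 per panel, on every array of skin, liver and fat. Points are arrays, grey WT and red KO, all well above background, and lines are group means. On the probe in the middle panel KO lies below WT without overlap in skin and fat.

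Of the members with at least 2 probes in the window well above background, the differences of a gene's probes spread by over 1 in 2 of 21 in skin, 0 of 25 in liver and 2 of 31 in fat, with median spreads of 0.25, 0.29 and 0.21. Beside *Ccser2*, these were *D14Abb1e* (*Tasor* in RefSeq) in skin, with -0.74, 0.05 and 0.50, and the muscle gene *Ldb3* in fat, with -0.40, 0.63 and 1.06.

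The upstream regions of the members called in liver are shown because JNK1 acts on AP-1. The AP-1 site was searched for with the loose pattern TGANTCA, where N is any base (the same on both strands). Each region is the 250 bases before the RefSeq start in build GRCm38.p6, whose coordinates are not comparable with those in mm9 above. Capitals mark matches to TGANTCA. *Lrit1* is chr14:37054580-37054829 (plus strand), *A930038B10Rik* chr14:34759945-34760194 (plus) and *Gdf10* chr14:33923337-33923586 (plus).
Lrit1: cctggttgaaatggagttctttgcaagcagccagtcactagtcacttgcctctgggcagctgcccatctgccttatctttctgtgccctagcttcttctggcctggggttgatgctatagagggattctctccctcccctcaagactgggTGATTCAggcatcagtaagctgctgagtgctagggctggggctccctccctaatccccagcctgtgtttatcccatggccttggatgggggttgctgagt
A930038B10Rik: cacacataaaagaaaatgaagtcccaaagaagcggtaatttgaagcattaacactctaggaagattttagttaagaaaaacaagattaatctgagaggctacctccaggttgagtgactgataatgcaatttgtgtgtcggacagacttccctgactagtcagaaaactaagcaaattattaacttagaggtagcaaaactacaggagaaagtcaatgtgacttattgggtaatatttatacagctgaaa
Gdf10: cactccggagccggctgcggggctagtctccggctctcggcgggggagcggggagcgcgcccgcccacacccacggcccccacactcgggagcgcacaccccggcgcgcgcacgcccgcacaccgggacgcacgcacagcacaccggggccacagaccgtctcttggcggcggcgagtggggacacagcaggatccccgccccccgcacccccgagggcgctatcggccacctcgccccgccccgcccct
The motif occurred in this window of 12 of the 116 members matched by symbol (10.3%) and of 2113 of all 27025 genes (7.82%). It was found once upstream of *Lrit1*, as TGATTCA, and not in these letters upstream of *A930038B10Rik* or *Gdf10*. Binding of AP-1 to any match was not tested.

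The genes on either side of the window's ends are given as a description. Inside the lower end, *TC1724170* (-9.25 Mb) was at -0.59 for skin, 0.07 for liver and -0.71 for fat, and *Dlg5* at -0.72 for skin and 0.12 for fat. Outside it, *1700112E06Rik* (-10.3 Mb) was at -0.45, -0.25 and 0.23 and *AK084429* (-10.696 Mb) at 0.29 in fat. Inside the higher end, *Sftpd* (7.78 Mb) was at -0.33 in liver and *Cdv3* (9.60 Mb) at -0.01, -0.09 and 0.03, and outside it *Ear1* (10.2 Mb) was at 0.33, 0.19 and 0.29 and *Ear10* (10.3 Mb) at -0.08, 0.005 and 0.37.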

How the data were processed

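Per the file headers, the deposited scanner files hold background-subtracted spot intensity, not scaled between arrays (software: Agilent Feature Extraction 10.7.3.1). Feature Extraction and limma are named in the submitters' processing notes. The authors' deposited value table is in log2 units; its normalization and centring are unknown. Probe positions are those of the files (mm9).

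R 4.3.3 and its package data.table, version 1.17.8, were used to read the files. Outlier spots were left out (329 over 20 arrays, 266 of them on fat KO 4), spots of a probe averaged, log2 taken, and each array's 75th percentile subtracted. The probe with the highest mean stood for a gene; for *Cdv3* this was its brightest probe inside the window. KO was compared with WT by limma 3.58.1 (two-sided, moderated errors) within a tissue; the mean over tissues and differences between tissues came from 1 fit of 6 group means. Folds against groups below background are bounds. In these, the array's lowest signal flagged well above background replaced any dimmer reading, and a brighter reading was kept as it was. Errors are SD unless given as SE. The number of arrays limits the precision.

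The scanner file of fat WT 2 was not used: its r with its own table column was 0.779, against at least 0.972 for the others. No 2 arrays were duplicates (highest r 0.986). The fit was tested on simulated data with 200 changed genes a tissue, split evenly between log2 changes of 1 and 3. It recovered 13%, 27% and 32% (skin, liver, fat) of the genes changed by 1. Of those changed by 3 it recovered 97%, 95% and 93%. It also called 10, 7 and 9 unchanged genes.

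Same-numbered KO and WT arrays did not deviate together (r across genes -0.11 to -0.04 in skin, -0.23 to -0.06 in liver, -0.02 to 0.19 in fat), so numbers were not used as pairs. The members, gene lists and named genes (called members, the 6 with the smallest p each way per tissue, the 4 nearest to *Mapk8* on each side, window ends, up to 3 per role list, 2 per tissue difference, and genes whose probes disagree) were chosen with earlier results of these data known. The lists of hepatocyte, skeletal muscle, epididymis and erythroid markers, besides those given with the results, were summed as checks of the samples.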

Additional observations from a re-analysis of the deposited data

Results flagged for a closer look

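Arrays that stood apart from the others of their group were sought in 96 pairs of a named gene and a group of 4, and 3 did; chance gives about 1 in 20. *Nisch* was at 4.48 on skin KO 1 and at 5.20 to 5.24 on the other KO skin arrays. *Wapal* was at 1.76 on skin KO 1 and at 1.22 to 1.30 on the others. *TC1724170* was at -5.78 on fat KO 4 and at -1.70 to -1.22 on the others.

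The contrast of the KO effect between tissues passed for 5 members, tested in limma with Benjamini-Hochberg adjustment. Skin minus liver was 5.22 for *A930038B10Rik*, 3.56 for *Lrit1* and 2.90 for *Lrit2*. Liver minus fat was -5.28 for *A930038B10Rik*, -4.10 for *Lrit1* and -2.92 for *Opn4*. Skin minus fat was -2.33 for *Anxa8* and -2.85 for *Opn4*. In the contrasts of *A930038B10Rik*, *Lrit1*, *Lrit2* and *Opn4*, both genotypes of 1 tissue were not well above background, nor was 1 genotype of the other. Each of these members had entered through its brighter genotype alone, so a difference was built in. With normexp, skin minus liver was 2.16 for *A930038B10Rik* (adjusted p = 0.0564) and 0.59 for *Lrit2* (0.718), and *Opn4* was at -0.75 (0.384) for skin minus fat and -0.98 (0.883) for liver minus fat. In the authors' deposited table *Lrit2* was at 1.07 (limma adjusted p = 0.538). Without a filter, adjusted p was 0.0791 and 0.0557 for *Lrit1*, 0.0607 for *Lrit2* and 0.0891 for *Opn4* (liver minus fat).

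Those of *A930038B10Rik* were called without each array in turn. The *Lrit1* contrast of skin minus liver was called only without skin KO 4, WT 2 or WT 3, and its adjusted p without any other array was 0.0543 to 0.174. The *Lrit1* contrast of liver minus fat was called only without fat KO 2, liver WT 3, fat WT 3 or fat WT 4, and was otherwise at 0.0519 to 0.116. The *Opn4* contrast of liver minus fat was called only without fat KO 1, liver WT 3, fat WT 3 or fat WT 4, and was otherwise at 0.0808 to 0.148. *Lrit2* was not called without skin KO 1 (adjusted p = 0.0546), skin KO 3 (0.0584), skin WT 3 (0.122), liver KO 1 (0.0872), liver KO 3 (0.0703) or liver WT 1 (0.0738). The skin minus fat contrast of *Opn4* was not called without skin WT 1 (0.0714), skin WT 3 (0.0589) or fat WT 1 (0.0528), nor that of *Anxa8* without skin WT 1 (0.0613), skin WT 3 (0.0589) or fat WT 3 (0.0625).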

How the results depend on the processing

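No called difference changed its sign under any alternative. Members called in the mean of 3 tissues numbered 2 with median centring, normexp, the authors' deposited table, a stricter filter or an intensity trend (*Gdf10* and *Wdfy4*), 4 without a filter, 3 with every probe by itself and 0 with slide as a fixed block. Of all genes, the first 5 of these settings called 13 to 17 (0.111% to 0.145%). Without a filter 16 of all genes were called (0.0585%), with every probe by itself 20 (0.122%) and with slide as a fixed block 0. In liver, 1 was called without a filter, and it was the only gene called there (0.00365%). With group means in 1 fit or slide as a random block, 1 was called in skin (*Wdfy4*) and 2 in fat (*Anxa8*, *Opn4*), where 129 and 119 of all skin genes (0.956% and 0.882%) and 54 of all fat genes (0.354%) were called. In liver these 2 fits called 20 of all genes (0.15%), with *Lrit2* in place of *Gdf10* (limma adjusted p = 0.192 and 0.207), which was called in 9 of 19 alternatives. Members that differed between tissues, 5 as reported, numbered 2 with slide as a fixed block and 3 without liver KO 1, KO 2 and WT 3 and skin KO 1 and WT 1. The cause of these changes was not tested. With the replicate block, 0 members were called in liver and 1 differed between tissues; the samples share only a number.

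Leaving out 1 array at a time, 0 to 4 members were called in liver, 0 in skin and fat, 0 to 1 in the fat table and 0 to 2 in the mean. *Gdf10* in that mean was then lost without liver KO 1 (adjusted p = 0.0502), skin WT 1 (0.0685), liver WT 1 (0.0607) or fat WT 1 (0.0579), and without the 3 liver and 2 skin arrays together *Wdfy4* was called in its place. The median under 1 Mb was then -0.58 to -0.42 in skin and -0.50 to -0.29 in liver, from 1 to 2.5 Mb -0.083 to 0.079 in skin and -0.0097 to 0.091 in liver, and from 5 to 10 Mb -0.059 to 0.025 in liver.

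The median difference under 1 Mb in skin was -0.23 with normexp, -0.16 without a filter, -0.62 with a stricter filter and -0.25 with slide as a fixed block, and in liver -0.15 without a filter. From 1 to 2.5 Mb it was -0.036 in liver with median centring, 0.13 in liver without KO 1, KO 2 and WT 3, -0.085 in skin without KO 1 and WT 1, and 0.21 in fat with the scanner file of WT 2. From 2.5 to 5 Mb it was -0.024 in skin with normexp, -0.13 with the deposited table, -0.033 without a filter and -0.14 without KO 1 and WT 1, and with slide as a fixed block -0.21 in liver and -0.21 in fat. From 5 to 10 Mb it was 0.0072 in skin with the deposited table, and in liver 0.067 without a filter, -0.14 with slide as a fixed block and 0.085 without KO 1, KO 2 and WT 3.

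Of all skin genes at an unadjusted p below 0.05, 49.3% were lower in the deposited table, and with median centring 137 of all skin genes were called against 2. All alternatives for fat from the deposited table, except the narrower window, were chosen after seeing the data, as were, for differences between tissues, median centring, the intensity trend, the replicate block and every omission of arrays. Few arrays a group and dim signals limit what could be called.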
